A study of Macaca fascicularis with 23 samples.

Results

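Proteasome subunits were followed in liver from cynomolgus monkeys (Macaca fascicularis) dosed with ciprofibrate, a lipid-lowering fibrate and agonist of PPAR-alpha. Members were all probe sets whose array annotation named 1 gene with a symbol that starts with PSMA, PSMB, PSMC, PSMD or PSME. This rule took 43 of 12625 probe sets, for 37 genes, of which 6 had 2 probe sets each. All 37 symbols also belong to a cynomolgus gene in RefSeq. One of them, PSMC3IP, is a meiotic recombination factor and no proteasome subunit, and it is kept apart below. The other 36 genes were sorted by role into the alpha ring (6), the structural beta subunits (4), the constitutive catalytic beta subunits (3), the immunoproteasome (3), the base (8) and lid (6) of the regulatory particle, the chaperones that assemble the base (3) and the activators (3).

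Each of the 23 arrays held liver RNA of 1 animal. After 4 days there were 2 animals on ciprofibrate at 400 mg/kg/day and 2 on vehicle. After 15 days there were 3 animals on vehicle and 4 each on ciprofibrate at 3, 30, 150 and 400 mg/kg/day. The labels gave no sex, age or genotype for the animals, and all tissue came from 1 liver lobe. The probes were designed on human transcripts, so tests compared groups within a probe set and did not set the level of a gene against another. The marker sums below add intensities over probe sets, so bright probe sets weigh most in them.

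The proteasome is the main protease for proteins that carry a ubiquitin chain. Its core particle is a barrel of stacked rings: outer alpha rings gate the entrance, and inner beta rings hold the catalytic sites among structural subunits. A regulatory particle on the end of the barrel has a base of ATPases and scaffold subunits, which unfold the substrate, and a lid that removes ubiquitin. Under interferon, PSMB9, PSMB10 and PSMB8 replace the constitutive catalytic subunits PSMB6, PSMB7 and PSMB5 to form the immunoproteasome, which favours peptides for antigen presentation. When proteasome capacity falls short, the transcription factor NFE2L1 raises the genes of core and regulatory particle together.

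Values are probe set intensities, and differences were tested on log2(intensity + 16), where the pseudocount makes differences of dim probe sets smaller. Of the 43 member probe sets, 40 passed the intensity filter (mean of at least 39.7), for 35 genes. PSMB8 (mean intensity 26.3), PSME3 (28.4) and a further probe set of PSMA2 (25.2) were below it and were not tested. Array medians ran from 55.0 to 71.6. Hepatocyte markers were high, as the label of liver requires: the 9 on the array had a summed intensity between 65140 and 143662 in the 23 animals. Summed marker levels also differed between groups. After 15 days of 400 mg/kg/day the 9 endothelial markers summed to between 1593 and 1897, against 2375 to 2695 with vehicle. The 10 Kupffer cell and macrophage markers summed to between 2709 and 3467, against 3842 to 5285, and the 9 hepatocyte markers to between 68075 and 83698, against 98454 to 112916. The 8 stellate cell and fibroblast markers summed to between 437 and 645, against 746 to 921. The 14 T and NK cell markers lay between 1246 and 1337, against 1122 to 1285. All endothelial markers tested were lower, with log2 differences from -0.17 for STAB1 to -0.94 for TIE1. Members of the other lists named here differed in direction. Among hepatocyte markers, log2 differences were -3.56 for CYP2E1 and -1.34 for HPX, but 0.004 for ALB, 0.20 for TTR and 0.59 for CPS1. Among Kupffer cell and macrophage markers, MARCO (-1.33), CD5L (-1.32), CD14 (-0.68) and C1QB (-0.40) were lower. AIF1 (0.31, SE 0.29), FCGR3A (0.29, SE 0.54) and CSF1R (0.18, SE 0.23) were above 0, with SEs large against the differences. Among stellate cell markers tested, ACTA2 alone was above 0 (0.15, SE 0.46). The others ran from -0.34 for LUM to -1.81 for TIMP1. The part of the marker shifts in the results on proteasome genes was not tested. In whole liver, fewer cells of a type, less RNA per cell and a change of single marker genes cannot be told apart by these sums.

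After 15 days at 400 mg/kg/day, the structural and the constitutive catalytic beta subunits of the core particle had the highest median differences from vehicle of the 8 roles. PSMB2, PSMB3, PSMB4, PSMB5, PSMB6 and PSMD2 rose, so 6 of the 35 genes tested passed an adjusted p under 0.05 and 0 fell. Of all 7535 probe sets tested, 1.26% were called as rising in this comparison and 0.876% as falling. Beyond the calls, the log2 difference was above 0 for 32 of 35 genes, against 47.4% of all probe sets. The 4 treated and 3 vehicle animals did not overlap, with the treated higher, for 13 of 35 genes (6.72% of all probe sets), and did so in the other direction for 0 genes (6.53%). The median log2 difference was 0.36 over the genes tested and 0.33 over all 37 genes, while that of all probe sets tested was -0.03.

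The 4 structural beta subunits, which carry no active site, had a median log2 difference of 0.79, and 3 of them rose. PSMB3 had intensities of 417.2, 510.2, 656.6 and 562.2 in the 4 animals at 400 mg/kg/day, against 230.6, 289.1 and 223.1 in vehicle animals. The lowest treated animal was thus well above the highest vehicle animal, and the difference was 1.06 ± 0.20 (SE) on the log2 scale, or 2.08-fold (limma adjusted p = 0.00359). PSMB4 was measured by a pair of probe sets that moved alike. On the dimmer it read 725.0, 678.9, 811.0 and 980.5 in treated animals, against 496.7, 450.0 and 275.2 with vehicle, a log2 difference of 0.97 ± 0.22 (adjusted p = 0.0146). On the brighter it read 958.1, 926.6, 916.7 and 989.0, against 618.6, 557.8 and 329.9, a log2 difference of 0.94 ± 0.24 (adjusted p = 0.0334). Vehicle replicate 3 was the low animal on both probe sets, and treated and vehicle animals did not overlap on either. PSMB2 was 1521.1, 1292.4, 1520.4 and 1439.3 in treated animals, against a narrow 891.0, 942.0 and 932.5 with vehicle, a rise of 0.64 ± 0.14 (adjusted p = 0.0143). PSMB1, the remaining structural subunit, differed by 0.53 ± 0.20 (adjusted p = 0.228), with 1 treated animal (356.5) below the highest vehicle animal (400.0).

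Among the constitutive catalytic subunits, PSMB5 and PSMB6 rose and PSMB7 was not called. PSMB5, which gives the chymotrypsin-like activity, had intensities of 1631.7, 1373.7, 1493.4 and 1473.9 at 400 mg/kg/day, against 940.0, 842.2 and 985.1 with vehicle. PSMB6, which gives the caspase-like activity, had 1154.0, 1106.3, 1294.8 and 1143.8, against 821.2, 635.6 and 665.6. Neither subunit overlapped between treated and vehicle animals, and the log2 differences were 0.69 ± 0.14 for PSMB5 (1.61-fold, adjusted p = 0.00833) and 0.73 ± 0.15 for PSMB6 (1.65-fold, adjusted p = 0.00761). PSMB7, which gives the trypsin-like activity, was 274.5, 352.8, 322.5 and 343.0 on its brighter probe set, against 332.0, 197.9 and 220.3. Here vehicle replicate 1 lay inside the treated range, and the difference was 0.38 ± 0.19 (adjusted p = 0.441). Its dimmer probe set differed by 0.71 ± 0.32 (adjusted p = 0.339). The plot of each animal's intensity for the called subunits shows these groups side by side with the lower doses and the earlier day.

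**Figure D1:**
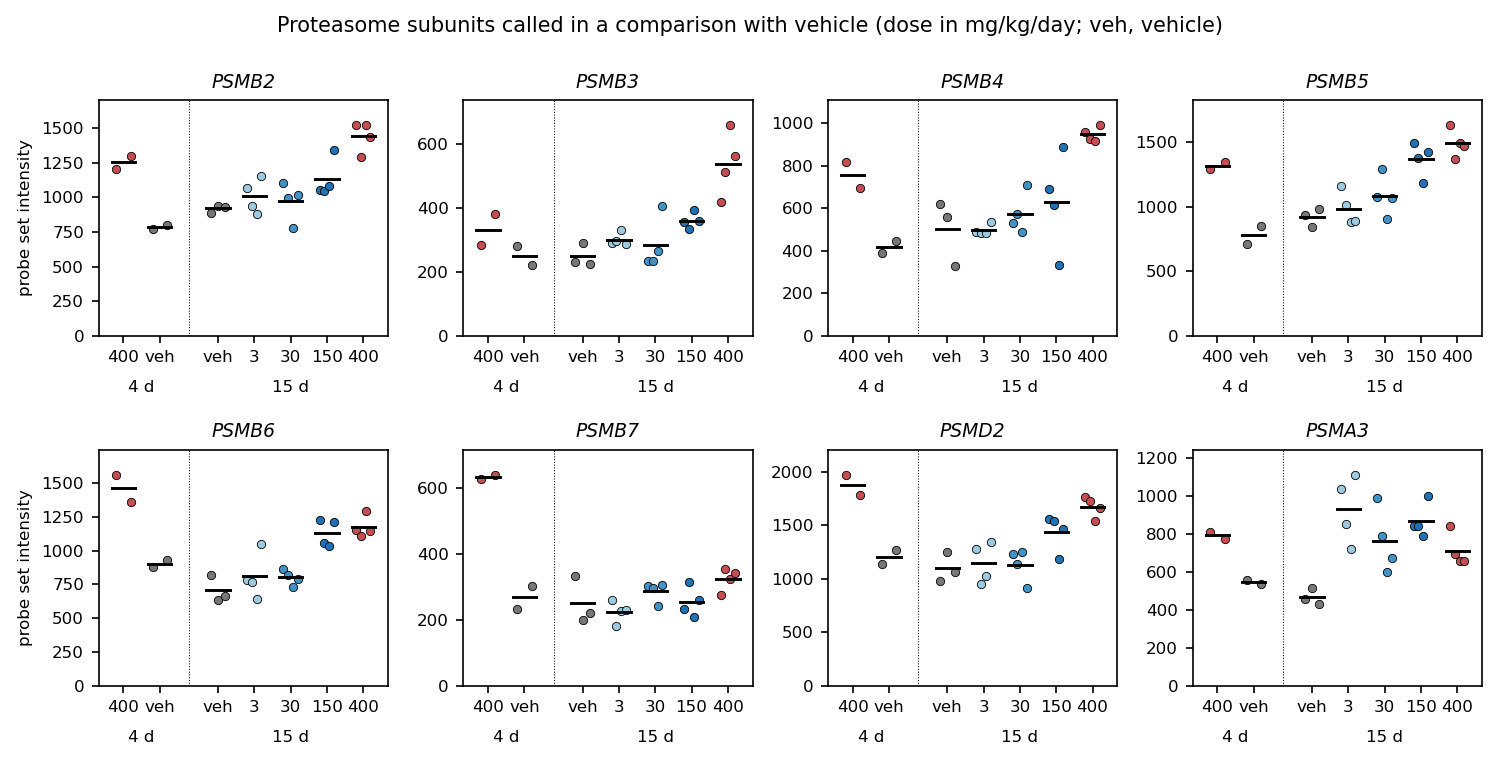
Intensity of the 8 proteasome genes called in a comparison with vehicle, 1 point per animal, with the group mean as a bar (linear axes from 0; dose in mg/kg/day). At 15 days the 4 animals at 400 mg/kg/day lie above all 3 vehicle animals in each gene but PSMB7, and PSMA3 is already higher than vehicle in all 4 animals at 3 mg/kg/day.

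The 6 alpha ring genes had a median log2 difference of 0.30 at 400 mg/kg/day, and 0 of them were called at that dose. PSMA3 was 837.8, 690.3, 657.7 and 653.9 in treated animals, against 457.3, 515.4 and 429.9 with vehicle. The groups did not overlap, yet the difference of 0.58 ± 0.17 stayed outside the threshold (adjusted p = 0.0858). PSMA5 was 168.7, 157.4, 134.0 and 173.0, against 111.6, 126.3 and 106.3, also without overlap (0.41 ± 0.20, adjusted p = 0.393). PSMA1 and PSMA7 differed by 0.12 ± 0.46 and 0.03 ± 0.32. Across all 13 core particle genes, alpha and beta, 5 rose, all 13 differences were above 0, and 8 genes had treated animals above all vehicle animals.

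In the base of the regulatory particle, 1 of 8 genes rose and all 8 differences were above 0, with a median of 0.35. PSMD2, the scaffold that receives ubiquitin receptors and the deubiquitinase USP14, was 1763.4, 1728.8, 1534.4 and 1660.3 at 400 mg/kg/day, against 978.8, 1250.4 and 1063.9 with vehicle. Treated and vehicle animals were clearly apart, and PSMD2 rose by 0.61 ± 0.15 (1.52-fold, adjusted p = 0.0358). PSMC3, an ATPase of the base, was 302.1, 289.9, 243.2 and 258.0, against 217.5, 138.2 and 101.6. All treated animals were again higher, but vehicle animals spread widely and the difference of 0.83 ± 0.27 was not called (adjusted p = 0.120).

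Of the 6 lid genes taken by the symbol rule 0 were called, although all 6 differences were above 0 (PSMD8 by its brighter probe set) and their median was 0.41. PSMD14, the deubiquitinase that releases ubiquitin chains from substrates, was 523.0, 305.5, 170.0 and 270.3 at 400 mg/kg/day, against 101.6, 208.2 and 202.8 with vehicle. Treated replicate 3 lay inside the vehicle range (0.79 ± 0.29, adjusted p = 0.213). PSMD8 gave opposite signs on its probe sets. On the brighter, treated animals had 868.4, 820.4, 1164.4 and 988.5, against 737.0, 545.5 and 586.0 (0.61 ± 0.20, adjusted p = 0.125). On the dimmer they had 14.8, 13.9, 71.9 and 53.7, against 70.0, 92.9 and 75.9 (-0.96 ± 0.48, adjusted p = 0.422), so no direction can be given for PSMD8 over both probe sets.

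Median differences of the immunoproteasome genes tested (-0.11), the base chaperones (0.05) and the activators tested (0.10) were below those of the core, base and lid roles. This contrast between roles was not tested, and single genes overlapped, as alpha ring genes reached down to 0.03. PSMB9 was 124.8, 138.1, 225.9 and 234.1 at 400 mg/kg/day, against 272.2, 244.1 and 205.1 with vehicle, a difference of -0.42 ± 0.24 (adjusted p = 0.517). PSMB10 was 190.4, 185.2, 192.7 and 236.3, against 211.2, 190.3 and 123.1 (0.21 ± 0.27, adjusted p = 0.844). The groups overlapped for both. PSMB8, at 6.7, 6.6, 14.9 and 26.6 against 25.0, 21.4 and 19.2, was too dim to test. Of the 3 base chaperones 0 were called, with a median of 0.05: PSMD5, which holds back the joining of base and core, was the lowest of all 35 genes tested at -0.55 ± 0.22 (adjusted p = 0.257), and PSMD10 (gankyrin) differed by 0.20 ± 0.23. Among the activators, which cap the barrel in place of the regulatory particle, PSME1 differed by 0.24 ± 0.18 (adjusted p = 0.677) and PSME4 by -0.04 ± 0.30. PSME3 was too dim to test, at 42.5, 16.9, 29.3 and 16.8 against 32.1, 18.1 and 30.9. PSMC3IP, no subunit, differed by 0.11 ± 0.43.

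**Figure D2:**
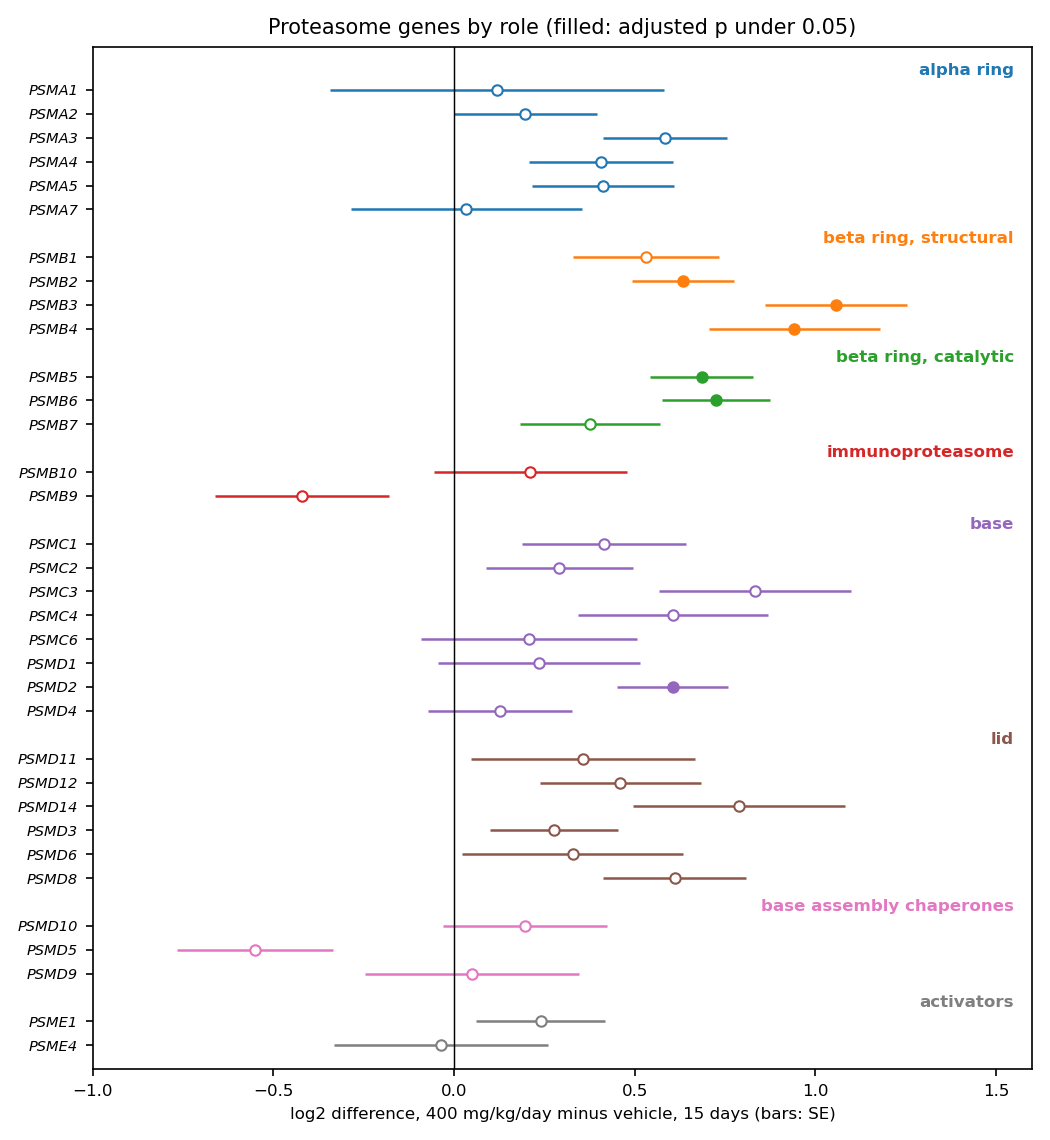
Log2 difference between 400 mg/kg/day and vehicle at 15 days for the 34 tested subunits, grouped by role (points with SE bars, filled where the adjusted p was under 0.05). Filled points are in the structural beta, catalytic beta and base groups, and PSMD5 and PSMB9 are the lowest points.

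Single animals decided several of these calls. Of the 7 called probe sets, 4 to 6 remained called when 1 animal was left out, and 4 when that animal was vehicle replicate 2, vehicle replicate 3, treated replicate 1 or treated replicate 4. PSMB3 kept its call in all 7 such fits. PSMB5 and PSMB6 lost theirs only without vehicle replicate 2 (adjusted p = 0.0596 and 0.0579), and PSMB2 without vehicle replicate 1 or treated replicate 1 (0.0705 and 0.0506). PSMB4 lost its call in 2 fits on the dimmer probe set and in 6 on the brighter, and PSMD2 in 5, where the highest adjusted p were 0.119, 0.219 and 0.188.

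The lower doses were set against the same 3 vehicle animals, so their differences from vehicle are not independent of each other. At 150 mg/kg/day 2 of 35 genes rose and 0 fell, where 0.531% of all probe sets were called as rising and 0.146% as falling. PSMB6 was 1223.8, 1054.2, 1036.4 and 1214.4 at this dose, against 821.2, 635.6 and 665.6 with vehicle, without overlap, and rose by 0.67 ± 0.15 (adjusted p = 0.0334). PSMA3 was 841.8, 838.8, 787.1 and 995.4, against 457.3, 515.4 and 429.9, again without overlap, and rose by 0.87 ± 0.17 (1.82-fold, adjusted p = 0.0175). Both calls were lost without vehicle replicate 2, vehicle replicate 3 or treated replicate 4 (0 called), that of PSMA3 also without vehicle replicate 1 and that of PSMB6 without treated replicate 1 or 2. PSMB5 reached 0.56 ± 0.14 and PSMB1 0.80 ± 0.20 (adjusted p = 0.0746 for each). The log2 difference was above 0 for 27 of 35 genes (47.8% of all probe sets), and groups were apart with the treated higher for 11 (5.16%). In the opposite direction they were apart for 1 gene (4.98% of all probe sets), PSMB9: it was 182.2, 181.6, 146.0 and 152.1 at 150 mg/kg/day, against 272.2, 244.1 and 205.1 (-0.50 ± 0.24, adjusted p = 0.442).

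At 30 and at 3 mg/kg/day 0 of 35 genes were called by limma, where 0% of all probe sets were called as rising at either dose, and 0.0133% as falling at 30 mg/kg/day. At an unadjusted p under 0.05, 5 genes were higher at 30 mg/kg/day (5.2% of all probe sets) and 3 at 3 mg/kg/day (5.03%). Differences were above 0 for 25 of 35 genes at 30 mg/kg/day (50% of all probe sets) and for 26 at 3 mg/kg/day (48.5%), with medians of 0.16 and 0.11. Treated animals were above all vehicle animals for 5 genes at 30 mg/kg/day (4.03%) and 2 at 3 mg/kg/day (4.05%). At 3 mg/kg/day, PSMA3 had 1033.3, 851.6, 719.9 and 1107.5, all above vehicle (0.95 ± 0.17, adjusted p = 0.0506). Without treated replicate 3, the lowest of these 4 animals, it was called. Thus PSMA3 did not follow the order of doses: all 16 treated animals at 15 days were above all 3 vehicle animals, and its mean was 467.5 ± 43.7 with vehicle (SD, n = 3), 928.1 ± 176 at 3, 760.8 ± 171 at 30, 865.8 ± 90.0 at 150 and 709.9 ± 86.8 at 400 mg/kg/day (SD, n = 4 each). PSMA4, on the brighter of its probe sets only, was the other gene with all 16 treated animals above vehicle, with vehicle at 213.7, 197.6 and 222.5 and the lowest treated animal at 230.3 (0.252% of all probe sets had this order).

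A different order was seen in PSMB3 and PSMB4, whose 4 animals at 400 mg/kg/day were above each of the other 15 animals of the same day. This held for 2 of 35 genes and for 0.783% of all probe sets. PSMB3 averaged 247.6 ± 36.1 with vehicle (SD, n = 3), then 300.1 ± 21.4, 284.5 ± 82.6, 359.4 ± 24.2 and 536.6 ± 100 at 3, 30, 150 and 400 mg/kg/day (SD, n = 4 each). Its lowest animal at 400 mg/kg/day had 417.2, and the next highest 15-day animal was at 30 mg/kg/day with 406.6. PSMB4 on its dimmer probe set averaged 407.3 ± 117 with vehicle, then 399.4 ± 65.2, 380.8 ± 50.6, 434.6 ± 109 and 798.9 ± 133, so its means below 400 mg/kg/day did not differ beyond the spread of animals. On its brighter probe set PSMB4 averaged 502.1 ± 152 with vehicle, then 496.2 ± 24.9, 573.7 ± 95.2, 629.9 ± 229 and 947.6 ± 32.8. PSMB5 averaged 922.4 ± 73.1 with vehicle, then 986.0 ± 132, 1085 ± 160, 1373 ± 132 and 1493 ± 106.

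A linear trend across vehicle and the 4 doses of the 15-day animals, taken as equally spaced, was called for 6 of 35 genes. All 6 rose, where 1.79% of all probe sets were called as rising and 1.31% as falling. These were PSMB2, PSMB3, PSMB4, PSMB5, PSMB6 and PSMD2, the genes also called at 400 mg/kg/day, whose animals enter both. Slopes per step were 0.24 ± 0.04 on the log2 scale for PSMB3 (adjusted p = 0.00196), 0.19 ± 0.03 for PSMB6 (0.000875), 0.18 ± 0.03 for PSMB5 (0.000917) and 0.15 ± 0.03 for PSMD2 (0.00959). Without vehicle replicate 3, PSMB4 lost its call on both probe sets (0.102 and 0.125), without 400 mg/kg/day replicate 4 it lost the call on the dimmer (0.0501), and without vehicle replicate 1, PSMD2 lost its own (0.0537).

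**Figure D3:**
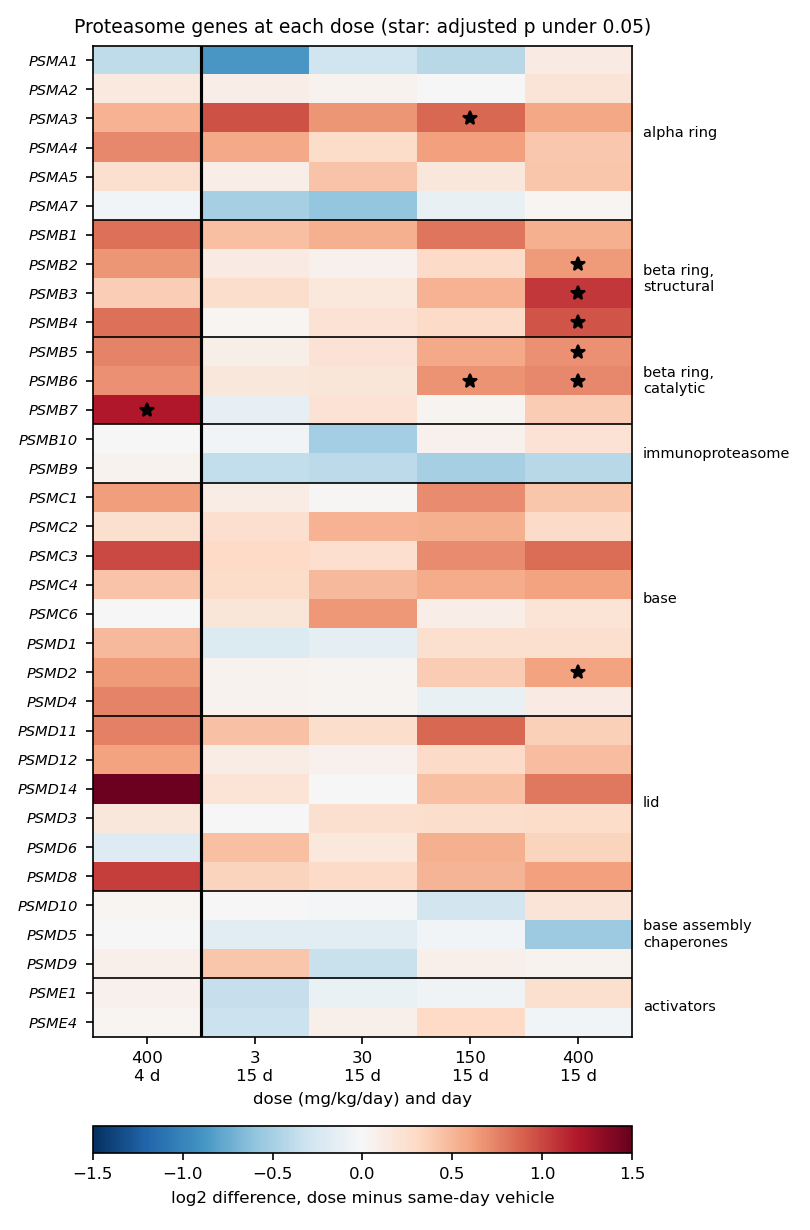
Log2 difference from same-day vehicle for the 34 tested subunits (rows, by role) in the 5 comparisons (columns, dose in mg/kg/day and day), with a star where the adjusted p was under 0.05. Stars fall on beta subunits and PSMD2 after 15 days of 400 mg/kg/day, on PSMA3 and PSMB6 at 150 mg/kg/day, and on PSMB7 at 4 days.

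The means of 400 and 3 mg/kg/day were also compared directly, with vehicle animals entering the estimate of spread alone. This called 7 of 35 genes as rising and 0 as falling, where 1.92% of all probe sets were called as rising and 2.26% as falling. Animals at the high dose were above all at the low dose for 9 genes (5.75% of all probe sets). PSMB2, PSMB3, PSMB4, PSMB5, PSMB6 and PSMD2 were joined by PSME1, a subunit of the interferon-inducible activator ring. PSME1 was 667.6, 741.7, 681.3 and 585.1 at 400 mg/kg/day, against 418.8, 493.3, 517.1 and 351.4 at 3 mg/kg/day, without overlap (0.58 ± 0.17, adjusted p = 0.0465). Vehicle animals, at 486.1, 593.0 and 616.1, lay between and overlapped both, and the call was lost in 7 of the 8 fits that left out 1 animal (adjusted p up to 0.145). PSMB3 differed by 0.79 ± 0.18 (adjusted p = 0.0123) and PSMB4 by 0.97 ± 0.20 on its dimmer probe set (0.00527). PSMA3 was lower at 400 than at 3 mg/kg/day in its mean, by -0.37 ± 0.16 (adjusted p = 0.226). Without 3 mg/kg/day replicate 2, or without 400 mg/kg/day replicate 1 or 3, 4 of the 8 called probe sets remained called, and 5 without 3 mg/kg/day replicate 3 or 400 mg/kg/day replicate 4. With only these groups in the fit 4 were called, and PSMB2, PSMB6, PSMD2 and PSME1 were lost.

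After 4 days at 400 mg/kg/day the median log2 difference was 0.42 over the 35 genes, against -0.05 over all probe sets tested. Marker sums differed here too, without overlap: hepatocyte markers summed to 65140 and 67490 in treated animals, against 84057 and 85626 with vehicle, Kupffer cell and macrophage markers to 2915 and 3516, against 4045 and 5290, and the 2 red cell markers to 1593 and 3300, against 4722 and 5110. T and NK cell markers summed to 1155 and 1162, against 1272 and 1340. Hepatocyte markers again differed in direction, with CYP2E1 at -1.54, HPX at -0.86, TF at 0.43 and CPS1 at 0.41 on the log2 scale. The part of the marker shifts in the 4-day differences was not tested. PSMB7 rose and was the only gene called, where 0.252% of all probe sets were called as rising and 0.0398% as falling. Its brighter probe set read 627.9 and 638.6 in treated animals, against 233.9 and 301.3 with vehicle, a difference of 1.21 ± 0.25 (2.31-fold, adjusted p = 0.0365). The call was lost without any 1 of these 4 animals (adjusted p between 0.172 and 0.395, with the lone animal assumed to vary like the other groups), and the dimmer probe set read 122.1 and 150.3, against 146.1 and 72.6 (0.34 ± 0.41, adjusted p = 0.999). PSMD14 was 442.3 and 483.5 in treated animals, against 132.4 and 183.4 with vehicle, the largest difference among the 35 genes at 1.48 ± 0.38, but was not called (adjusted p = 0.134). PSMD8 on its brighter probe set was 1315.7 and 1391.9, against 674.6 and 624.7 (1.04 ± 0.26, adjusted p = 0.116). PSMB5 was 1294.7 and 1344.5, against 711.0 and 855.3 (0.75 ± 0.19, adjusted p = 0.120).

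With 2 animals a group, treated and vehicle animals did not overlap, with the treated higher, for 18.4% of all probe sets, so this count says less at 4 days. The order was reversed for 1 gene, the lid subunit PSMD6 (23.6% of all probe sets), and differences were above 0 for 30 of 35 genes (45% of all probe sets). Treated animals were higher without overlap for 21 of 35 proteasome genes, among them 11 of 13 core particle genes, 5 of 8 base genes and 5 of 6 lid genes. By role, median log2 differences at 4 days were 0.74 for structural beta, 0.75 for catalytic beta, 0.19 for alpha ring, 0.56 for base and 0.68 for lid genes. They were 0.03 for the base chaperones, 0.04 for the activators tested and 0.02 for the immunoproteasome genes tested. The ratio of the 5' to the 3' probe set of ACTB, a measure of RNA length, was 1.02 and 1.21 in treated animals at 4 days, against 0.748 and 0.988 with vehicle, and its part in these differences was not tested. At 15 days it ran from 0.552 to 0.839 at 400 mg/kg/day, against 0.540 to 0.606 with vehicle.

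The 4-day and 15-day comparisons at 400 mg/kg/day share no animal, so they can be set side by side. All 13 genes whose treated animals were above all vehicle animals at 15 days were so at 4 days as well: PSMA3, PSMA4, PSMA5, PSMB2, PSMB3, PSMB4, PSMB5, PSMB6, PSMC3, PSMD2, PSMD3, PSMD8 and PSMD12. For PSMA4 and PSMD8 this held on the brighter probe set, while at 4 days the dimmer one of PSMA4 overlapped and differed by -0.43 ± 0.47 (adjusted p = 0.996). The dimmer one of PSMD8 had the opposite sign at 15 days. This double order was met by 13 of 35 genes and by 3.57% of all probe sets. The difference was above 0 at both days for 27 of 35 genes (26.0% of all probe sets) and below 0 at both for 0. When the 15-day effect was tested against the 4-day effect, 0 of 35 genes were called by limma, and 0% of all probe sets were. At an unadjusted p under 0.05, which 1.79% of all probe sets met with a larger and 1.58% with a smaller effect at 15 days, there were 2 genes: PSMB7, with the smaller effect at 15 days (-0.83 ± 0.32, adjusted p = 0.999, but 0.37 ± 0.52 on its dimmer probe set), and PSMB3, with the larger (0.69 ± 0.32, adjusted p = 0.999).

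Animals were also compared by the median of each role's genes. For the structural beta genes, this median lay between 0.70 and 0.83 above the vehicle mean in the 4 animals after 15 days of 400 mg/kg/day, and between -0.24 and 0.15 in the 3 vehicle animals. For the catalytic beta genes it was 0.57 to 0.70, against -0.14 to 0.22. Alpha ring medians (0.25 to 0.44, against -0.06 to 0.13) and base medians (0.32 to 0.57, against -0.06 to 0.03) were also above all vehicle animals. Lid genes spread more widely, from 0.21 to 0.79, against -0.09 to 0.20. The median of the 3 immunoproteasome genes, which include the dim PSMB8, ran from -0.74 to 0.17 in treated animals, against -0.21 to 0.18 with vehicle, so these groups overlapped. At 150 mg/kg/day the catalytic beta median was 0.36 to 0.69 and the structural beta median 0.37 to 0.69, both above all vehicle animals. So were the base median (0.36 to 0.55) and the lid median (0.31 to 0.67), while the alpha ring median (-0.01 to 0.25) overlapped vehicle.

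**Figure D4:**
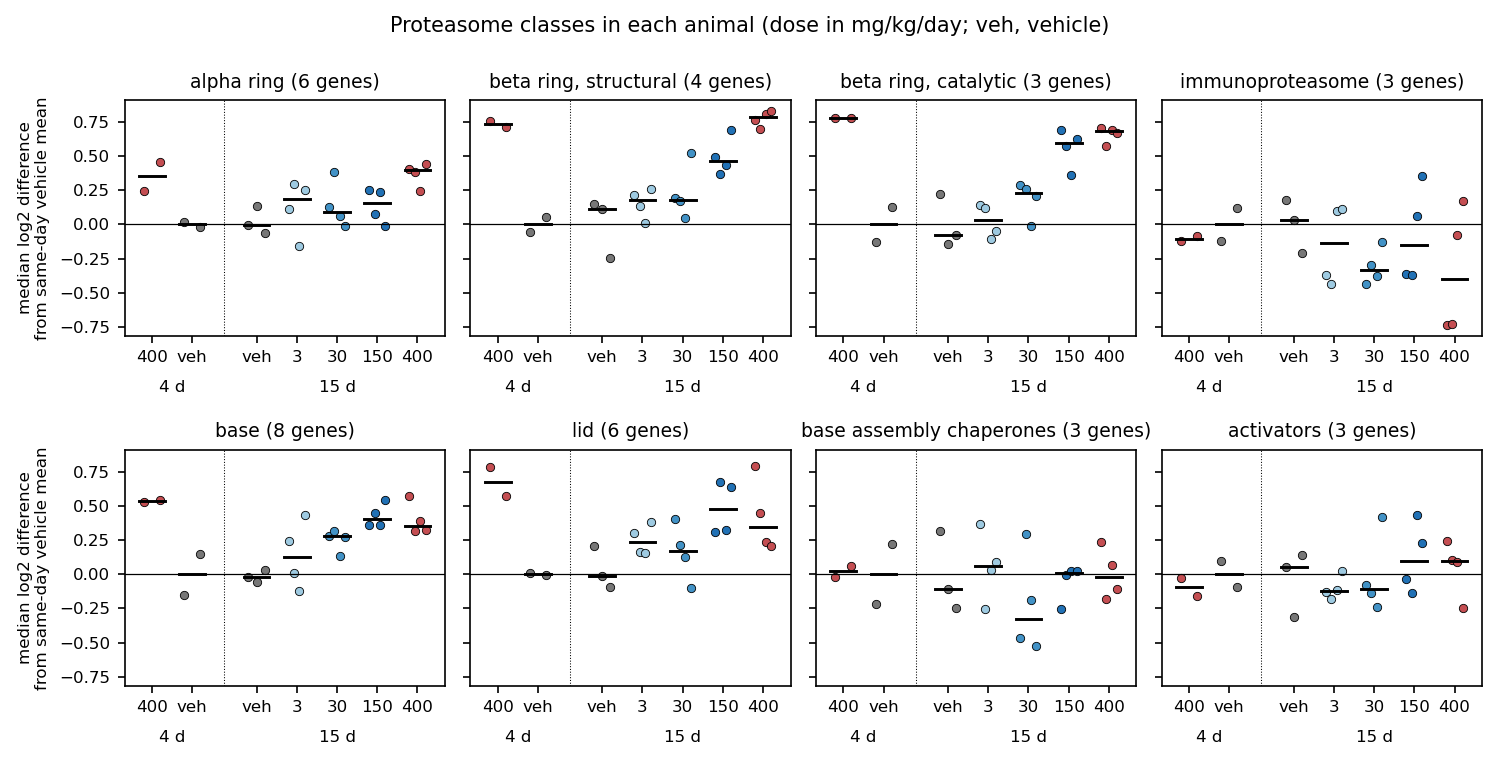
Median log2 difference from the same-day vehicle mean over the genes of each role, 1 point per animal, with the group median as a bar (genes below the intensity filter included; dose in mg/kg/day). Structural beta, catalytic beta, alpha ring, base and lid genes of all 4 animals after 15 days of 400 mg/kg/day lie above vehicle. Immunoproteasome, chaperone and activator genes overlap vehicle.

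Genes that act around the proteasome were counted from lists chosen with earlier results of these data known. Of 11 tested genes for assembly and associated factors, 0 were called after 15 days of 400 mg/kg/day (median 0.35). NFE2L1, the transcription factor of proteasome genes, differed from vehicle by 0.42 ± 0.17 at 400 mg/kg/day (adjusted p = 0.275). Its differences were much the same at 30 mg/kg/day (0.48 ± 0.17, adjusted p = 0.394) and 3 mg/kg/day (0.50 ± 0.17, adjusted p = 0.301). Between 400 and 3 mg/kg/day it differed by -0.08 ± 0.16. Only at 150 mg/kg/day was NFE2L1 called, with a rise of 0.78 ± 0.17 (adjusted p = 0.0295). That call was lost without vehicle replicate 1 or 2, or without treated replicate 1, 2 or 4 (adjusted p between 0.0589 and 0.177). It was also lost with no intensity filter (0.0513), with no variance trend (0.089), with replicate number as a block (0.0577) and with only these groups in the fit (0.216). RAD23B, which shuttles ubiquitylated proteins to the proteasome, differed by 0.57 ± 0.25 at 400 mg/kg/day (adjusted p = 0.325). Of 21 tested genes of ubiquitin and its first steps, 0 were called (median 0.12). VCP, the ATPase that extracts ubiquitylated proteins, had the smallest p at 0.76 ± 0.24 (adjusted p = 0.116), followed by USP5, which takes free ubiquitin chains apart, at 0.33 ± 0.16 (adjusted p = 0.418).

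Targets of NRF2, the factor of the oxidative stress response that is related to NFE2L1, were counted as well. After 15 days of 400 mg/kg/day 5 of 16 tested genes rose and 0 fell, with a median of 0.48, where 1.26% of all probe sets were called as rising. These were NQO1, a quinone reductase (2.46 ± 0.25, adjusted p = 5.45e-06), AKR1B10, an aldo-keto reductase (3.61 ± 0.40, 1.12e-05), TXN, thioredoxin (1.35 ± 0.19, 0.00017), ME1, malic enzyme (1.25 ± 0.28, 0.0154), and EPHX1, an epoxide hydrolase (0.77 ± 0.20, 0.0457). NQO1, AKR1B10 and TXN kept this call in each of the 7 fits that left out 1 animal, ME1 lost it without vehicle replicate 3 or treated replicate 1 (0.0953 and 0.0666), and EPHX1 lost it in all 7 (up to 0.151). The other targets were not called, and of these HMOX1 alone was below 0 (-1.10 ± 0.59, adjusted p = 0.469). Those above 0 included TKT (0.83 ± 0.33), FTL (0.51 ± 0.18), SQSTM1 (0.50 ± 0.57), TXNRD1 (0.46 ± 0.23) and GCLC (0.30 ± 0.27). ABCC2 (0.02 ± 0.23) and GCLM (0.01 ± 0.38) were close to 0. NQO1, TXN and AKR1B10 also rose at 4 days, but TXN lost that call without any 1 of the 4 animals (up to 0.322), and NQO1 and AKR1B10 lost theirs without vehicle replicate 1 or treated replicate 1 (up to 0.0601 for NQO1 and 0.192 for AKR1B10). NQO1 and AKR1B10 rose at 150 mg/kg/day, AKR1B10 losing its call in 6 of 7 fits without 1 animal (up to 0.127). TKT and FTL joined these 5 in the comparison of 400 with 3 mg/kg/day, where 7 of 16 rose and 1.92% of all probe sets were called as rising. Without 1 animal, TKT lost its call in 5 of 8 fits (up to 0.126) and FTL in 7 of 8 (up to 0.094). Of 16 tested genes of antigen presentation and the interferon response, 0 were called at 400 mg/kg/day after 15 days against vehicle (median -0.04). CD74, the invariant chain, differed by -0.71 ± 0.24 (adjusted p = 0.158) and IFIT1 by 0.93 ± 0.40 (adjusted p = 0.314). ISG15, a ubiquitin-like protein, rose against 3 mg/kg/day (1.45 ± 0.29, adjusted p = 0.00345). It had 383.0, 368.9, 959.0 and 576.6 at 400 mg/kg/day and 142.7, 182.1, 194.5 and 222.8 at 3 mg/kg/day, with vehicle at 326.1, 407.6 and 350.8, above all animals at 3 mg/kg/day and overlapping those at 400 mg/kg/day. Against vehicle it differed by 0.54 ± 0.31 at 400 mg/kg/day (adjusted p = 0.518) and by -0.92 ± 0.31 at 3 mg/kg/day (adjusted p = 0.301).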

How the data were processed

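Liver RNA of 23 animals was measured on a human gene array, 1 array per animal. The authors deposited 1 linear intensity per probe set and array. These came from MAS5, as the submitters' processing notes state without a version. The trimmed mean of each array (2% off each end) was between 150.065 and 150.08, so no further scaling was applied. Of 12625 probe sets, 67 controls were left out. Values were taken as log2 after a pseudocount of 16, and 7535 probe sets at or above the 40th percentile of mean log2 value (5.80) were tested. A means model over 7 groups was fitted to all arrays with limma 3.58.1 in R 4.3.3 with an intensity trend (16 residual and 6.63 prior degrees of freedom). Tests were two-sided and adjusted by Benjamini-Hochberg over 7535 probe sets, with calls under 0.05. SE comes from that fit and SD from a group's arrays. The fit was tested on simulated data with known shifts. Of 67 probe sets shifted by 0.5 on the log2 scale, 4 were called for 400 mg/kg/day at 15 days. At 30 and at 3 mg/kg/day 2 were called, and at 4 days 0. Of 67 shifted by 1, 22 were called for 400 mg/kg/day at 15 days and 5 at 4 days. Most shifts of these sizes were thus missed, so a gene not called may still differ. A gene was represented by its tested probe set with the highest mean.

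The members, lists and tests were chosen with earlier results of these data known. Named genes were members called in any comparison, the 2 members of each role with the smallest p after 15 days of 400 mg/kg/day, all catalytic, immunoproteasome and activator genes, and, per related list, genes called or the 2 with the smallest p. PSMA1, PSMA4, PSMA7, PSMB1, PSMD3, PSMD6 and PSMD12 were named after their values were seen. So were the single cell markers and the NRF2 targets HMOX1, GCLC, GCLM, ABCC2, SQSTM1 and TXNRD1. Labels called the arrays of a group biological replicates. Their number limits the precision. Same-numbered animals of different groups did not deviate together (mean r -0.00 over 58 pairs, 0 of them over 0.1), so numbers were not used as pairs. No arrays of a group were duplicates, since at most 0.333% of their values were identical. Alternatives covered pseudocount, filter, scaling, variance trend, robust fit, array weights, replicate block, separate fits, dose scores and each animal left out. Probe set names follow GEO's platform annotation.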

Additional observations from a re-analysis of the deposited data

Results flagged for a closer look

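In groups of 4 animals, 1 animal stood far from the other 3 in 7 of 160 groups looked at, where chance sets apart about 1 in 20. PSMB10 was 236.3 in replicate 4 after 15 days of 400 mg/kg/day, against 185.2 to 192.7 in the other animals. At 150 mg/kg/day, PSMB2 was 1344.7 in replicate 4 (others 1046.3 to 1083.6), PSMD12 was 342.9 in replicate 2 (others 241.4 to 250.7), and PSMD5 was 459.6 in replicate 1 (others 560.8 to 569.2). At 30 mg/kg/day, PSMB7 was 241.8 in replicate 3 (others 295.1 to 306.1). At 3 mg/kg/day, PSMB4 was 533.3 on its brighter probe set in replicate 4 (others 481.7 to 486.8), and PSME3, below the intensity filter, was 38.2 in replicate 1 (others 27.3 to 28.9).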

How the results depend on the processing

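No proteasome probe set was called as falling under any alternative run. After 15 days of 400 mg/kg/day 7 probe sets were called, 4 without the variance trend and 3 with only the groups compared in the fit. With 1 animal left out, 4 to 6 were. At 150 mg/kg/day the 2 calls became 1 with no filter, 1 with same median scaling, 0 without the variance trend, 4 with array weights, 1 with the replicate block and 0 with only the groups compared, and 0 to 2 with 1 animal left out. At 3 mg/kg/day the 0 calls became 1 with the filter at the 60th percentile or array weights, and 0 to 1 with 1 animal left out. At 4 days the 1 call became 8 with array weights and 0 with no filter, quantile normalization, no variance trend, the replicate block, only the groups compared, or any animal left out. For 400 against 3 mg/kg/day the 8 calls became 4 without the variance trend or with only the groups compared, and 4 to 7 with 1 animal left out. The slope had 5 to 10 calls with 1 animal left out, against 7. The counts of 0 at 30 mg/kg/day and for the difference between days held in all fits. With the replicate block, 6 were called at 400 mg/kg/day, 7 for the slope and 7 for 400 against 3 mg/kg/day. The alternatives for called genes of the related lists and for PSME2 were added after seeing the data. Separate fits have fewer samples, and the cause of the other shifts was not tested.

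Differences near 0 changed sign after 15 days of 400 mg/kg/day without being called. PSME4 (-0.04) became 0.018 with quantile normalization and 0.059 with same median scaling. With 1 animal left out, PSME4 ranged from -0.19 to 0.094, PSMA1 from -0.044 to 0.21, PSMA7 from -0.14 to 0.14, PSMB10 from -0.0017 to 0.35 and PSMC3IP from -0.082 to 0.49. PSMD9 ranged from -0.11 to 0.30 on the probe set that represented it and from -0.62 to 0.032 on its other one.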

Other observations

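Probe sets that name a proteasome gene together with another gene were outside the selection. PSME2, the partner of PSME1 in the activator ring, is named with MIR7703 on a pair of probe sets. On one it was 674.9, 695.9, 1065.0 and 1218.6 after 15 days of 400 mg/kg/day, against 643.6, 955.4 and 690.5 with vehicle. On the other it was 551.1, 463.8, 1033.4 and 904.4, against 636.4, 827.2 and 505.6. Both overlapped vehicle. Against 3 mg/kg/day, where the first probe set had 628.8, 476.0, 521.6 and 454.2, it rose by 0.76 ± 0.21 (limma adjusted p = 0.0355), a call lost in 5 of 8 fits without 1 animal (up to 0.136), while the other differed by 0.69 ± 0.23 (adjusted p = 0.108). The alpha subunit PSMA6, named with PRORP, was 2120.3, 520.4, 1129.5 and 1074.1 after 15 days of 400 mg/kg/day, against 868.5, 719.7 and 693.3 with vehicle.

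Within the 4 animals given 400 mg/kg/day for 15 days, replicates 3 and 4 were the higher ones in PSMB9 (225.9 and 234.1, with 124.8 and 138.1 in replicates 1 and 2) and in the dim PSMB8 (14.9 and 26.6, with 6.7 and 6.6). Both PSME2 probe sets had the same order. So did B2M, the light chain of class I molecules (1504.1 and 2191.5, with 1056.5 and 997.0), and ISG15 (959.0 and 576.6, with 383.0 and 368.9). PSME1 did not, at 681.3 and 585.1, with 667.6 and 741.7. These genes were picked after their values were seen, and the order was not tested.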
